A study of Homo sapiens with 6 samples.

Results

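In untreated SKOV3WT cells, 893 peaks of acetylated histone H3 lysine 9 (H3AcK9) spanned at least 10 kb in 1 unbroken stretch, and these broad domains are described here. They were chosen by their width in the untreated peak list, on the 20 autosomes that hold peaks in all lists (chromosomes 13 and 21 were left out). They made up 0.253% of the 352674 untreated peaks on these chromosomes, of 376666 in the whole untreated list, and held 12.2 Mb, or 3.73%, of the 326 Mb that untreated peaks covered. After treatment with either histone deacetylase inhibitor (HDACi), every domain still held peaks, but as several shorter ones. Vorinostat peaks covered 78.0 and 75.4% of the domain bases in the 2 lists of that sample, and romidepsin peaks 77.3 and 74.9%, with a median of 8 and 9 peaks per domain. The treated lists also part peaks by gaps under 509 bp, which the untreated list does not hold. Joined across such gaps, vorinostat peaks covered 90.7 and 89.3% and romidepsin peaks 92.3 and 90.8%, with a median of 2 per domain. For these gaps, a division by the drugs and one by peak calling cannot be told apart.

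Acetylation of histone tails weakens their contact with DNA and is read by bromodomain proteins, and H3AcK9 marks active promoters and enhancers. It is written by acetyltransferases and removed by histone deacetylases, so an HDACi raises the overall acetylation of histones in a cell. Most stretches of H3AcK9 are short, and broad stretches of active marks are known from genes that define a cell type, such as HOX genes and lineage regulators.

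SKOV3WT is an established human ovarian carcinoma cell line known to carry an amplified ERBB2 gene. The cells were left untreated, or were exposed for 24 h to 1 times the IC50 of vorinostat, a hydroxamic acid, or of romidepsin, a cyclic peptide, before enzymatic fragmentation of chromatin and immunoprecipitation with an antibody against H3AcK9. There was 1 ChIP sample per condition, all 3 conditions used the same cell line, and the 3 input samples gave no list. According to the labels, the sequencing company split each treated sample in 2, so the lists of a drug are not separate cultures and no difference between conditions was tested. The drugs are compared below by whether both lists of one lay above both lists of the other, which shows only how far the lists of 1 sample spread. The lists give no reads per peak, so the depth behind a peak is unknown, and copy number and input reads were not used here.

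The lists differed in how finely peaks were divided, and this bears on every value below. On the 20 chromosomes there were 352674 untreated peaks, 851523 and 852209 after vorinostat, and 884969 and 884230 after romidepsin, while the covered length was 326, 293, 280, 321 and 308 Mb in the same order. The smallest gap between neighbouring peaks was 509 bp in the untreated list, 205 bp in both vorinostat lists and 201 bp in both romidepsin lists. A gap of 300 bp could therefore part 2 peaks in a treated list but in no place of the untreated list. For this reason the main values are also given with treated peaks joined across gaps of up to 508 bp, a choice made after the gaps had been seen. Joining counts the bases of the gap as covered, so a covered share can only rise by it.

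The peak coordinates followed hg19, since peaks on chromosome 1 end beyond the length of that chromosome in hg38, the build named in the labels. Neither sequence nor annotation of hg19 was used here. Gene names at the domains are therefore general knowledge of where genes lie in hg19, added after the values were known, and of these names only the chromosome was checked, in RefSeq of GRCh38, where 48 of 48 names lay on the chromosome of their domain. Domains without such a name are given by position. For 4 genes at domains described below, the 250 bases before 1 RefSeq start (GRCh38.p14) are printed 5′ to 3′, with every CpG in capitals. Other starts of these genes were not read, and the stretches were not placed on the domains. Values of the ERBB2 stretch therefore hold for that start alone. The genes are ERBB2 (chr17:39687844-39688093, plus strand), WNT7A (chr3:13880072-13880321, minus strand), S100A6 (chr1:153535992-153536241, minus strand) and S100A4 (chr1:153545807-153546056, minus strand).
ERBB2: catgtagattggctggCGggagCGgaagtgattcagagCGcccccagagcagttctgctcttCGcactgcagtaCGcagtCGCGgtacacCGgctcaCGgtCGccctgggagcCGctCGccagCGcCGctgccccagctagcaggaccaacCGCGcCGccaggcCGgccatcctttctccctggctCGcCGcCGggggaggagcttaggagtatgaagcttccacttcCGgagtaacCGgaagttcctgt
WNT7A: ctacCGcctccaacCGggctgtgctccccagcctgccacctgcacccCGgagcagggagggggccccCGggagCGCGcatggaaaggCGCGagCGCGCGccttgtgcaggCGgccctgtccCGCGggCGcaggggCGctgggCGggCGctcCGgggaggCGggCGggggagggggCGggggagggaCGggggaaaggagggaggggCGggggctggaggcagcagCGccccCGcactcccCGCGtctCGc
S100A6: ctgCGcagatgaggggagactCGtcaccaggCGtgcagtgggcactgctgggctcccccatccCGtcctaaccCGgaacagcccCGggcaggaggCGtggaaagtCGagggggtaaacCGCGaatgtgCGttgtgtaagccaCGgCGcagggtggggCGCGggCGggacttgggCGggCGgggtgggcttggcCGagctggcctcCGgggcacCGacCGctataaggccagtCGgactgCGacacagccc
S100A4: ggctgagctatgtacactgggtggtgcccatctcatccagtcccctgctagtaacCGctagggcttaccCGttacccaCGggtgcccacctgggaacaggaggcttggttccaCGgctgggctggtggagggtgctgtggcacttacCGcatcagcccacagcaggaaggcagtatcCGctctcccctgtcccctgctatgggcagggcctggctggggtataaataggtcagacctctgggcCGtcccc
The 250 bases held 23 CpG in ERBB2, 29 in WNT7A, 24 in S100A6 and 7 in S100A4, against a median of 11 and an upper quartile of 23 over 35116 RefSeq promoters of the same length. Their GC content was 65.6%, 80.4%, 70% and 62.8%, against a median of 58%. On either strand, GGGCGG occurred 4 times before WNT7A and 3 times before S100A6, and 42.6% of all promoters held it at least once. TATAAA occurred 1 time before S100A4 (10.7% of all promoters). The pattern TGANTCA, wider than the core that AP-1 binds, occurred 1 time before ERBB2, as TGATTCA (6.57% of all promoters). Of these 4 starts only that of S100A4 held fewer CpG than the median promoter.

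Most domains were only a little wider than the limit. Widths ran from 10004 to 65371 bp with a median of 12111 bp, and 429 domains (48.0%) measured 10 to 12 kb. There were 73 domains of at least 20 kb, 12 of at least 30 kb and 4 of at least 40 kb. The narrowest members measured 10004, 10007 and 10007 bp, and the widest peaks left out 9996, 9996 and 9998 bp. In the narrowest member, at GRB7, vorinostat peaks covered 92.7 and 89.9% and romidepsin peaks 100% in both lists. In the widest peak left out, chr3:172310868-172320865, the shares were 63.2, 67.7, 60.4 and 57.8% in the order vorinostat lists 1 and 2, romidepsin lists 1 and 2, an order kept wherever 4 values follow each other below. The score that the authors deposited with each peak, whose scale is not stated, had a median of 1.05 in the domains (0.617 to 9.00) and of 0.956 in untreated peaks of 5 to 10 kb.

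Every one of the 893 domains held at least 1 peak in all 4 treated lists. Among all untreated peaks on these chromosomes, 35.3% had no peak in either vorinostat list and 33.2% none in either romidepsin list, but these are mostly short peaks, and among untreated peaks of 5 to 10 kb the share was 0.0% for both drugs. The lowest covered share of a domain was 30.1, 35.4, 37.5 and 34.1%, and the median 78.9, 75.9, 77.5 and 75.1%. Under 50% of the bases were covered, as the mean of both lists, in 18 domains after vorinostat (2.02%) and in 13 after romidepsin (1.46%). The same rule held for 74.5% and 70.0% of all untreated peaks and for 9.99% and 8.63% of those of 5 to 10 kb. At least 90% were covered in 67 domains after vorinostat (7.5%, against 5.98% of all untreated peaks and 5.27% of those of 5 to 10 kb) and in 48 after romidepsin (5.38%, against 7.56 and 4.09%). Domains with little coverage by treated peaks of any score were therefore few, and domains covered almost throughout made up a share near that among other untreated peaks. This rests on all deposited peaks: with treated peaks of a score of at least 1, the covered share was 22.5% after vorinostat and 20.3% after romidepsin, and 793 and 829 domains fell under 50%. The filter was not applied to other untreated peaks, so these counts are not read as particular to the domains. Treated peaks that touched a domain had a median score of 0.891, 0.878, 0.887 and 0.878. For other peaks of the same lists the median was 0.876, 0.869, 0.866 and 0.863, also under 1. The untreated share is 100% by the way the domains were chosen, and no other untreated list was used here to show what a repeat of the untreated ChIP would cover. The lists of a treated sample cannot show this, since they are parts of 1 split sample with like smallest gaps. Peaks of at least 10 kb in one of them (15 to 33 peaks) were covered to between 94.1 and 98.8% by the other. With peaks of both lists joined across gaps of up to 508 bp, such peaks (1105 to 2503) were covered to between 92.8 and 96.8%.

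The domains differed from their treated peaks mainly in continuity. Only 22, 10, 16 and 10 domains kept an unbroken peak stretch of at least 10 kb, 35 domains did so in any list and 2 in all 4. The longest unbroken stretch of a domain had a median of 3911, 3439, 3252 and 2933 bp, and the longest uncovered stretch a median of 675, 717, 623 and 664 bp. Peaks that touched a domain were still wider than the rest, with a median width of 771, 718, 771 and 700 bp against 207, 204, 218 and 214 bp for other peaks of the same list. The gaps between peaks inside the domains were short, with medians of 310, 313, 293 and 297 bp, and only 3.01, 3.15, 1.84 and 1.97% were over 1000 bp. Gaps under 509 bp, which the untreated list does not hold anywhere, made up 81.6, 80.7, 85.0 and 83.5% of them. With treated peaks joined across such gaps, the median fell to 2 peaks per domain in all 4 lists, the covered share was 90.7, 89.3, 92.3 and 90.8%, and 288, 232, 296 and 256 domains held a single joined peak. Joined peaks of at least 10 kb then numbered 1436, 1105, 2503 and 2017, more than the 893 of the untreated list. Of these joined peaks 510, 460, 581 and 508 touched a domain, and 58.0, 52.4, 63.5 and 56.0% of the domains were touched by one. A division of broad acetylation by the drugs and a finer division by peak calling cannot be told apart in these lists for the gaps under 509 bp.

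The covered share rose with the width of the untreated peak. It was 70.6, 68.3, 70.8 and 68.9% in untreated peaks of 5 to 10 kb, 75.2, 72.5, 75.2 and 72.7% in domains of 10 to 12 kb, and 83.6, 81.0, 80.9 and 78.2% in the 73 domains of at least 20 kb. Peaks per 10 kb went the other way, from 7.21, 7.61, 7.99 and 8.29 at 5 to 10 kb to 4.59, 5.27, 5.76 and 6.32 at 20 kb or more. The widest domains were thus the least divided per length. In 33 of the 73 widest domains (45.2%) both vorinostat lists covered more than both romidepsin lists, and in 6 (8.22%) the reverse. Among all 893 domains the corresponding shares were 31.7% and 28.3%, among untreated peaks of 5 to 10 kb 31.4% and 32.0%, and among all untreated peaks 21.7% and 28.6%. With joined peaks the 73 domains were covered to 94.6, 93.7, 94.5 and 93.3%, and the numbers were 23 (31.5%) and 15 (20.5%), against 190 (21.3%) and 317 (35.5%) of all 893 domains joined. Relative to all domains, wide ones therefore leant to vorinostat with joined peaks too, while their covered shares no longer lay apart by drug.

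**Figure D1:**
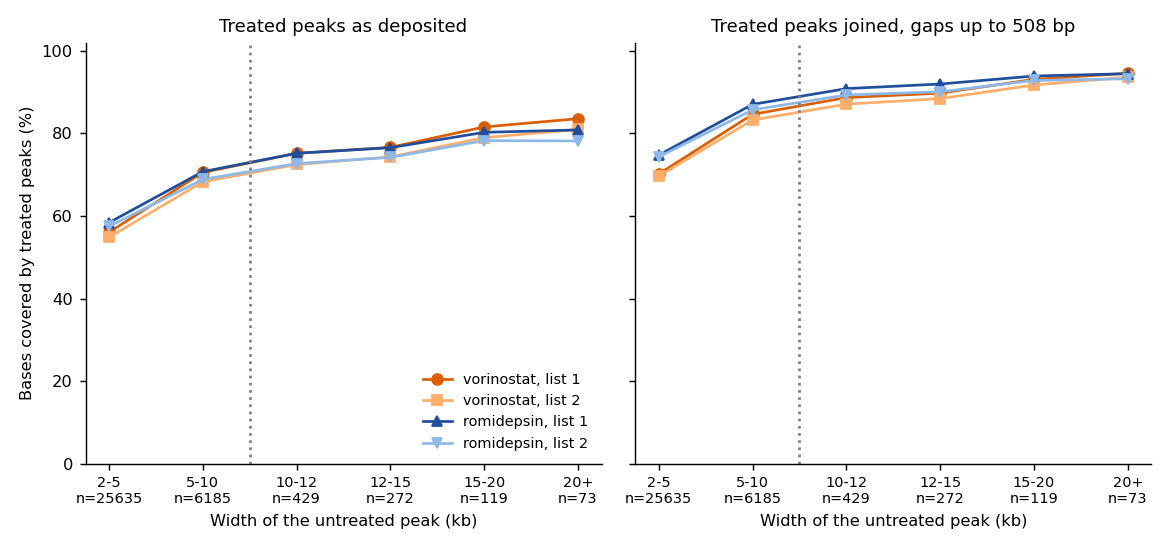
Percent of bases covered by treated peaks (vertical axis) against the width class of the untreated peak in kb (horizontal axis, n peaks per class), 1 line per treated list, with peaks as deposited (left) and joined across gaps of up to 508 bp (right). Classes right of the dotted line are the 893 domains, and the share rises to 83.6, 81.0, 80.9 and 78.2% in the widest class on the left and to between 93.3 and 94.6% on the right.

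Treated coverage was lowest at the ends of the domains. In the outermost of 20 equal parts the treated peaks covered 65.3, 62.9, 70.3 and 67.7%, and in the central ones 82.3, 80.0, 79.6 and 77.5%. As deposited, both vorinostat lists therefore covered more than both romidepsin lists in the central parts and less at the ends. Over parts 5 to 16 the lists of the drugs overlapped, with 81.6, 78.9, 79.3 and 76.8%. In the first kb outside, untreated peaks covered 18.7%, where the rule that 2 untreated peaks lie at least 509 bp apart holds the value down, and treated peaks 39.97, 35.7, 47.9 and 43.4%. Over the whole 10 kb on both sides, untreated peaks covered 49.99%, vorinostat peaks 44.1 and 41.1% and romidepsin peaks 51.4 and 48.4%. Peaks that reached past an edge of a domain numbered 986, 932, 1092 and 1022.

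The 20 widest domains ranged from 26325 to 65371 bp, and treated peaks covered between 62.7 and 98.3% of each, in 4 to 39 peaks. The widest, chr14:61996725-62062095, lay at PRKCH, which codes for protein kinase C eta of epithelial cells. It was covered to between 89.1 and 91.1% in the 4 lists, in 22, 23, 22 and 25 peaks, so its content was alike in all lists while no stretch exceeded 11171 bp. Joined, it became 1 or 2 peaks. The domain next in width, chr17:46642665-46696667, lay over HOXB3 to HOXB8, transcription factors that give position along the body axis. This HOXB domain had the highest treated share of all 893, with 98.3, 97.6, 96.1 and 92.0% in 4, 5, 9 and 14 peaks. Its longest unbroken stretch reached 42862 and 29536 bp in the vorinostat lists, 16684 and 15171 bp in those of romidepsin, and joined it was covered to between 98.8 and 100% in every list.

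The third, chr2:38294516-38338336, lay at CYP1B1, a cytochrome P450 that oxidises steroids and xenobiotics. It was covered to 76.1, 69.6, 69.7 and 62.7% in 27, 31, 31 and 39 peaks. Joined, the CYP1B1 domain stood at 92.6, 88.4, 83.8 and 83.6%, in 5, 7, 10 and 9 peaks, so gaps of more than 508 bp parted its peaks in every treated list. The fifth, chr1:153503326-153543014, held S100A6, S100A4 and S100A2, small calcium-binding proteins tied to cell motility. Its covered share was 85.7, 80.9, 82.4 and 77.1%, and its longest stretch 12301 and 15387 bp with vorinostat but 3895 and 3748 bp with romidepsin. Joined, the longest stretch of the S100A6 domain was 39664, 33753, 16308 and 28500 bp, and its share 99.9, 96.5, 96.5 and 96.6%.

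Values of 5 more of the 20 widest domains follow. FOSL1, an AP-1 transcription factor, lay in chr11:65653933-65689015, covered to 84.8 and 82.2% after vorinostat and to 74.4 and 72.2% after romidepsin. The lists of the drugs did not overlap there, and joined they stood at 96.7, 93.3, 91.9 and 91.5%. EGFR, the receptor of epidermal growth factor, held chr7:55129825-55163328, covered to 78.6, 72.7, 76.4 and 71.5%, with overlapping lists. CRIM1, a membrane protein that binds bone morphogenetic proteins, lay at chr2:36578024-36605228, covered to 92.3, 92.8, 88.3 and 89.4% and to 100% in every list when joined. ITGA3, an integrin chain that binds laminin, was covered to 91.1, 83.4, 89.8 and 83.3%, where the lists of 1 drug differed more than the drugs did. SLC35F6, a solute carrier, was the exception in direction, with 70.7 and 72.2% after vorinostat and 82.3 and 78.4% after romidepsin. Of the 20 widest, both vorinostat lists lay above both romidepsin lists in 9, the reverse held in 1, and the lists overlapped in 10.

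Domains often lay close together. The median distance to the nearest other domain was 177926 bp, 291 domains (32.6%) lay within 50 kb of another, and they formed 117 groups, of which 14 held at least 4. Chromosomes 11, 1 and 2 held the most domains (90, 89 and 84). Per 1000 untreated peaks, chromosomes 20 and 17 held the most, 5.04 and 5.02, and chromosome 4 the fewest, 1.14.

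The group with the most members, 8 domains with 106651 bases in chr17:37770666-37916380, lay over the ERBB2 region, from PPP1R1B and STARD3 through TCAP, PNMT, PGAP3 and ERBB2 to GRB7. Treated peaks covered 84.8 and 81.8% of it after vorinostat and 93.2 and 92.4% after romidepsin, in 46 and 53 against 32 and 31 peaks. In 7 of the 8 domains both romidepsin lists lay above both vorinostat lists, and the reverse held in 0. The corresponding shares were 28.6% and 21.7% of all untreated peaks, and 28.3% and 31.7% of all 893 domains. Among the other 63 domains of chromosome 17 the numbers were 20 and 15. Joined, the group stood at 94.7, 93.5, 99.5 and 98.7%, so the order of the drugs held for the total of the group with joined peaks too. The domain inside ERBB2, the receptor tyrosine kinase that is a drug target in breast cancer, was chr17:37864853-37877399. It was covered to 62.3 and 56.2% in 10 and 13 peaks after vorinostat and to 93.2 and 94.9% in 5 and 4 peaks after romidepsin, the highest difference between the drugs of all 893 domains (34.8 percentage points). Joined, ERBB2 stood at 75.9, 76.7, 100 and 100%. The domain at GRB7, an adaptor that binds ERBB2, was 1 unbroken peak in both romidepsin lists and 4 and 5 peaks after vorinostat, but joined it was 1 peak covering 100% in all 4 lists. The domain at PNMT and PGAP3 stood at 100, 100, 100 and 97.7% joined, so it no longer leant to romidepsin. Copy number of the region was not measured here, and its part in these values was not tested.

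**Figure D2:**
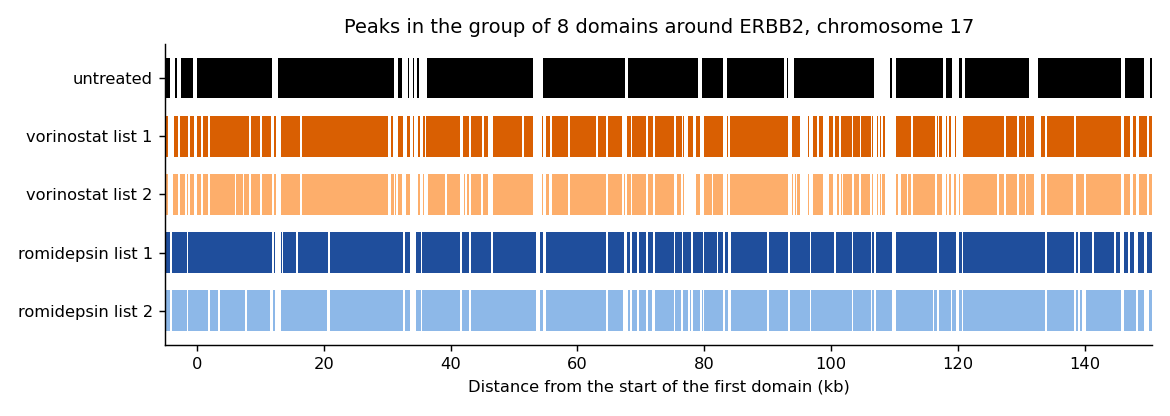
Peaks (bars, drawn to scale) of the untreated list and of the 4 treated lists over the group of 8 domains around ERBB2, with distance from the start of the first domain in kb on the horizontal axis. Romidepsin peaks number 32 and 31 within the domains and vorinostat peaks 46 and 53, and the ERBB2 domain lies from 94.2 to 106.7 kb.

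Other groups lay at single genes or gene clusters. At WNT7A, a Wnt ligand of the reproductive tract, 5 domains in chr3:13858576-13932010 were covered to 91.2, 87.5, 91.7 and 90.2%. The 4 HOXB domains from HOXB2 to HOXB9, chr17:46612638-46710248, were covered to 93.0, 92.7, 94.4 and 92.5%. At PRKCH and at HIF1A, the oxygen-regulated transcription factor on the same arm of chromosome 14, groups of 4 were covered to 88.8, 87.4, 90.3 and 87.4% and to 79.7, 79.9, 82.7 and 78.8%. In each of these groups the totals of the drugs overlapped, while at WNT7A both romidepsin lists lay above both vorinostat lists in 3 of the 5 domains and the reverse held in 0. Joined, romidepsin stayed apart above at WNT7A only in chr3:13858576-13873498 (95.7, 95.5, 100 and 96.2%). The reverse then held in chr3:13898599-13909824 (100, 100, 99.7 and 99.7%), and the joined WNT7A group stood at 98.1, 97.4, 99.8 and 98.0%. At KRT80 and KRT7, keratins of simple and glandular epithelia, 4 domains were covered to 83.4, 81.7, 86.0 and 82.6%. Unnamed groups lay in chr2:27902573-28060654, with 6 domains, chr6:43967295-44098125, with 5, and chr2:161074552-161142301, with 4. The first was covered to 80.8, 77.6, 78.6 and 77.0%, the next to 74.0, 74.3, 74.0 and 71.0%. The last was covered to 72.9, 65.7, 72.0 and 68.2%. In each of these unnamed groups the totals of the drugs overlapped. The group at SMAD3, which carries signals of TGF-beta to the nucleus, was higher after vorinostat. Its 4 domains in chr15:67390069-67448527 were covered to 85.5 and 83.8% after vorinostat and 74.5 and 74.2% after romidepsin, with vorinostat above in 4 of 4. Joined, SMAD3 stood at 95.3, 93.2, 90.6 and 92.6%, but its domains no longer all leant to vorinostat. Romidepsin then lay above at chr15:67390069-67401703 (87.8, 83.3, 94.4 and 88.5%). The lists overlapped at chr15:67415854-67432011 (100, 96.7, 93.5 and 99.5%). Vorinostat stayed above at chr15:67405002-67415195 and chr15:67432521-67448527.

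Besides the ERBB2 region, 3 of the other groups reported here, each of 4 domains, had totals higher after romidepsin in both lists. An unnamed group in chr20:49288912-49364890 was covered to 70.1, 68.3, 74.1 and 73.3%, with romidepsin apart above in 3 of 4 domains, and joined to 84.6, 84.0, 91.1 and 91.2%. The group at ZMIZ1, a coactivator of nuclear receptors, was covered to 86.1, 83.8, 88.2 and 88.9%, and joined to 97.3, 97.4, 97.8 and 97.9%. As deposited, romidepsin lay apart above in 2 of its 4 domains and vorinostat in 1. An unnamed group in chr6:11580873-11656697 was covered to 73.9, 73.1, 74.7 and 75.2%. In this group romidepsin lay apart above in 1 of 4 domains and vorinostat in 2, so its domains did not follow its total. The lead of romidepsin was thus small at ZMIZ1 when joined and small in the chromosome 6 group as deposited.

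Over all domains the drugs were close in total and differed by domain in both directions. The covered share was higher after romidepsin in 409 domains (45.8%, against 42.5% of all untreated peaks and 51.4% of those of 5 to 10 kb). Both romidepsin lists lay above both vorinostat lists in 253 (28.3%, against 28.6 and 32.0%) and below in 283 (31.7%, against 21.7 and 31.4%), shares near those of the peaks next in width. The difference had a median of -0.60 percentage points, and its size a median of 5.33, against 3.12 between the vorinostat lists and 3.63 between the romidepsin lists. With joined peaks the order turned, with romidepsin apart above in 317 domains (35.5%) and below in 190 (21.3%). The same count was not made for other untreated peaks with joining. Joined coverage of untreated peaks of 5 to 10 kb was also higher in both romidepsin lists, with 84.6, 83.3, 87.1 and 85.7%. The turn is therefore not read as particular to the domains. No order of the drugs over all domains can be read from the peaks as deposited.

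After ERBB2, the domain that leant most to romidepsin lay at CHTOP, a chromatin target of an arginine methyltransferase, chr1:153610115-153620971. It was covered to 30.1, 41.3, 67.6 and 72.1%, and joined to 36.7, 50.6, 85.7 and 92.6%. COA5, an assembly factor of cytochrome c oxidase, at chr2:99217966-99228554, was covered to 68.4, 56.3, 87.7 and 79.9%, and joined to 78.6, 74.7, 99.5 and 99.9%. Among the domains that leant to vorinostat, the largest difference was at EPAS1, the hypoxia-inducible factor HIF-2 alpha, chr2:46552403-46562828. It was covered to 94.9 and 82.2% in 3 and 7 peaks after vorinostat and to 64.3 and 57.1% in 9 and 11 after romidepsin, and joined to 100, 94.8, 83.4 and 76.8%. SORCS2, a sorting receptor, at chr4:7206278-7216572, was covered to 94.2, 94.2, 68.8 and 69.0%, but joined to 98.9, 98.9, 96.1 and 94.6%. ADGRL2, an adhesion receptor, at chr1:82264834-82276157, was covered to 68.2, 71.2, 47.2 and 42.9%, and joined to 85.2, 91.6, 66.8 and 55.3%. Joining thus left large differences at ERBB2, CHTOP, COA5, EPAS1 and ADGRL2 and small ones at SORCS2. These domains were picked for their differences, so their size is a description.

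The lowest treated shares lay at genes of varied function. NOX4, an oxidase that makes hydrogen peroxide, at chr11:89064625-89074719, was covered to 40.7, 37.5, 38.3 and 36.5%, low in every list. BNC2, a zinc finger protein, at chr9:16719022-16730808, was covered to 39.2, 40.7, 37.5 and 36.2%. ZBTB38, which binds methylated DNA, at chr3:141113757-141127730, was covered to 34.4, 35.4, 43.0 and 44.8%, with an uncovered stretch of 4235 bp in the first vorinostat list. Joined, ZBTB38 reached 41.7, 47.5, 56.2 and 64.4%, so much of its untreated domain stayed without peaks after joining as well. At COBLL1, an actin-binding protein gene, chr2:165567390-165577901 was covered to 36.2, 35.7, 50.8 and 49.9%. At the other end, after HOXB, stood GRB7, a domain at WNT7A (chr3:13898599-13909824; 94.0, 92.5, 97.9 and 97.9%) and one at GNG12, a G protein chain (chr1:68181089-68192443; 98.1, 98.1, 92.6 and 90.8%). An unnamed domain on chromosome 8 was covered to 94.3, 95.8, 94.0 and 93.9%.

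The study asked about human endogenous retroviruses (HERVs), so the domains were also set beside the HERV loci that it picked from these samples, which are no independent choice. The positions used were those that the study intersected with these same peaks, in the build of the peaks. Of 80 such loci on the 20 chromosomes, 12 shared bases with 11 domains, 7 of them among the 32 of the HERVH group, and 1 of the 12 shared only 25 bp. The share among other HERV loci was not computed, so nothing particular to the domains is read from these counts. The CYP1B1 domain held a whole HERVH locus of 5712 bp. The FXYD2 domain, chr11:117669025-117697425, named for a regulator of the sodium pump, held one of 1831 bp and was covered to 73.9, 72.4, 69.7 and 68.7%. A domain of 15447 bp at chr1:222131015-222146461 touched a pair of HERVH loci and was covered to 74.0, 68.0, 47.1 and 48.6%, among the 5 that leant most to vorinostat. The 11 domains lay between 47.1 and 87.2% covered in any list, within the range of the others.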

How the data were processed

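H3AcK9 ChIP-seq peak lists of 3 ChIP samples were used, 1 list for untreated cells and 2 per treated sample. Per the labels and the study's methods, the authors aligned reads with BWA or a SOAP aligner, and MACS 1.4.2 gave the peaks, with a p-value limit of 1e-05. The labels name hg38, while the deposited coordinates follow hg19. The authors deposited a score beside each peak, which has no stated scale and served only as a filter in an alternative. The labels call the lists of a drug parts of 1 split sample, and a supplement of the study calls them biological replicates. They were treated as 1 sample. Columns of the study's own comparisons of HERV loci were not used, only the positions, names and groups of the loci.

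A domain was an untreated peak of at least 10000 bp. Treated peaks sharing at least 1 base with it, the bases covered, and the longest covered and uncovered stretch were computed with Python 3.11.15, NumPy 2.4.6 and pandas 2.3.3, and figures with Matplotlib 3.10.9. The functions were tested on simulated data and gave the counts of bedtools 2.31.1 in 893 of 893 domains per list. Values per drug are means of both lists, with no test, because there was 1 sample per condition.

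The members and lists were chosen with earlier results of these data known. Named domains were the 20 widest, the 5 with the highest and lowest treated share, the 5 with the largest difference between the drugs each way, those beside the limit, and, chosen after their values were seen, groups of at least 4 domains. That rule called for positions alone where no annotation of the build was at hand. Names from general knowledge were added outside it, and gene lists and cell type markers planned for counting could not be placed on the domains. 1 of the 20 widest domains and its group are not reported here. The lists give no reads per library, so the precision due to depth is unknown.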

Additional observations from a re-analysis of the deposited data

How the results depend on the processing

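Of 99 values under 14 alternatives, 72 moved beyond the spread of both lists or 1.5 times a count, and 27 did not. Quantities follow in the order covered share, median peaks and domains under 50% covered, each vorinostat then romidepsin (main 76.7 and 76.1%, 8 and 9, 18 and 13), then domains more covered after romidepsin (main 409) where it moved. A minimum width of 8 kb gave 1917 domains with 74.4 and 74.3%, 6.5 and 7.5, 80 and 59, and 939. At 12 kb there were 464, with 8.5 and 10 peaks, 8 and 4 domains, and 193. At 15 kb there were 192, with 81.3 and 79.4%, 10 and 11.5, 3 and 2, and 70. At 20 kb there were 73, with 82.3 and 79.5%, 12 and 15, 0 and 0, and 20. The union of both lists gave 80.9 and 80.9%, 7 and 8, 9 and 6. Treated peaks with a score of at least 1 gave 22.5 and 20.3%, 2 and 2, 793 and 829. Joining treated peaks across gaps of up to 300 bp gave 82.9 and 83.9%, 4.5 and 4.5, 6 and 7, and joining all lists before choosing domains gave the same values (82.9 and 83.9%, 4.5 and 4.5, 6 and 7), because the untreated list has no such gap. Joining up to 1000 bp gave 96.2 and 97.6%, 1 and 1, 0 and 0. Joining up to 508 bp, chosen after seeing the data, gave 89.97 and 91.5%, 2 and 2, 2 and 0, with 492 domains more covered after romidepsin. Only domains with a score of at least 1 (489) gave 11 domains under 50% after vorinostat and 222 more covered after romidepsin. Peaks with at least 50% of their length inside gave 7.5 and 8.5 per domain, and the second list alone 23 domains under 50% after romidepsin. Apart from what follows from these definitions, the cause was not tested. No paired analysis was possible because there was 1 ChIP sample per condition and no result came from a test.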
